A study of Drosophila melanogaster with 16 samples.

Results

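The 39 genes described here encode the enzymes that take sugar through glycolysis, the oxidative pentose phosphate pathway, the glycerophosphate shuttle, the pyruvate dehydrogenase complex and the TCA cycle of Drosophila melanogaster. The rule lists them by gene number and uses no measured value. They were measured by 78 of the 32162 probes of the array, 28 of them by more than 1 probe. Gene expression was measured with one-colour Agilent arrays in 4 groups of 4 arrays: antennae of starved flies, antennae of fed flies, brains of starved flies and brains of fed flies. All flies were wild-type Canton-S females aged 5 to 7 days per the labels. The labels give 28 h of starvation and 0 h for the fed flies. The methods of the paper add that starved flies had moist tissue and that fed flies kept a sugar source. Each extract pooled 100 antennae or 50 brains taken from 50 flies, so no array is a single animal, and nothing states that the 4 extracts of a group came from separate cultures. The p-values therefore measure the spread between extracts. The methods give 50 flies for 100 antennae and 50 brains, so both organs may come from the same flies. The main tests between tissues treat their extracts as separate. The study asked which genes change with starvation in the organ that detects odors and in the brain.

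Glycolysis splits glucose into pyruvate, which is either reduced to lactate in the cytosol or carried into the mitochondrion, turned into acetyl-CoA by pyruvate dehydrogenase and oxidised in the TCA cycle. The glycerophosphate shuttle passes the electrons of cytosolic NADH to the respiratory chain, and the pentose phosphate pathway draws off glucose 6-phosphate to make NADPH and ribose. In the fly brain, glial cells are known for strong glycolysis and for feeding lactate to neurons.

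A level below is a probe's signal on the log2 scale, set against the 75th percentile of the array, so that 0 is the brightness that 3 of 4 spots do not reach, and a change is the mean level on the arrays labelled starved minus that on the arrays labelled fed. Each gene is represented by its brightest probe. A gene was called when limma gave an adjusted p below 0.05 over all probes tested. All 39 genes were tested in every comparison, and 75 of the 78 probes were bright enough to be tested.

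The labels set every direction given here, and some of the values run against the study's account as read here. The study describes allatostatin as higher in starved antennae and CCHamide as higher in starved brain, and its main text does not name the genes. AstA, which encodes the peptide allatostatin A, and CCHa1, which encodes CCHamide-1, were taken for them here. AstA was lower on the antennal arrays labelled starved, with a change of −1.85 (SE 0.32, adjusted p = 0.00544), as were 2 other brain peptide genes described next. CCHa1 was lower on the brain arrays labelled starved, with a change of −0.27 (SE 0.08, adjusted p = 0.03). The study also describes short neuropeptide F as higher in starved antennae, and its value is not reported here. Pepck1, a gluconeogenic enzyme gene commonly raised by food deprivation, was also lower on the arrays labelled starved, by −2.97 in antennae and −3.13 in brain (adjusted p = 0.000602 and 0.000963). "Labelled starved" and "labelled fed" are therefore used throughout.

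The antennal arrays carried antennal markers and the brain arrays carried brain markers. The summed linear level of 6 antennal genes ran from 884 to 1240 in antennae and from 13.3 to 29.2 in brain, and that of 6 brain peptide genes from 0.16 to 1.82 in antennae and from 38.2 to 51.0 in brain. In antennae the brain peptide sum was 0.16 to 0.32 labelled starved and 0.309 to 1.82 labelled fed, and 3 of its 4 tested genes were called lower: AstA, Dh44 at −0.75 (adjusted p = 0.0332) and Pdf, which was well above background on 1 of the 4 arrays labelled starved and on all 4 labelled fed (adjusted p = 0.0231). Other marker genes moved with the label too. In brain the sum of 7 fat body genes was 97.8 to 175 on the arrays labelled starved and 29.6 to 52.4 on those labelled fed, with 5 of the 7 well above background in both groups, all 5 of them called higher. The sum of 8 muscle genes there was 28.3 to 37.5 on arrays labelled starved and 17.3 to 26.0 on those labelled fed, with all 8 above background, 2 called higher and 1 lower. In antennae the sum of 6 gut genes was 0.283 to 0.777 labelled starved and 0.796 to 120 labelled fed, with 5 of the 6 above background and 2 called lower. The sum of 5 glial genes in brain was 46.1 to 57.7 labelled starved and 39.3 to 48.3 labelled fed, with all 5 above background and 2 called higher, repo at 0.60 and alrm at 0.40 (adjusted p = 0.00223 and 0.0293). The sum of 7 photoreceptor genes in antennae was 132 to 223 labelled starved and 154 to 216 labelled fed, with 2 of the 7 called lower. The part of these cells in the results below was not tested. In a bulk extract, fewer cells of a type and less RNA per cell cannot be told apart.

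In antennae labelled starved, 9 of the 39 enzyme genes were higher, 3 were lower and 27 were not called. Of all genes, 11.1% were higher there and 17.2% lower. In brain labelled starved, 15 of the enzyme genes were higher, 2 were lower and 22 were not called, and the shares of all genes were 11.6% and 21.0%. The median change of the 39 was 0.14 in antennae and 0.20 in brain, beside −0.02 and −0.07 for all genes tested. With quantile scaling these medians were 0.08 and 0.07 for the enzymes and 0.06 and 0.02 for all genes, so that most of the excess was gone. Of the 9 higher in antennae, 8 were among the 15 higher in brain (88.9% of the antennal genes and 53.3% of the brain genes). Both genes lower in brain, Hex-A and Ldh, were lower in antennae, where Hex-C was the third. The antennal balance moved with the scaling. It was 22 higher and 2 lower with arrays centred on the median, and 7 higher and 6 lower with quantile scaling or with cyclic loess. In brain the same 3 scalings gave 17 and 1, 10 and 3, and 11 and 2. Each of the 4 slides held 1 array of each group, with a group always at the same position, so position and group cannot be told apart. Within slides, all 12 genes called in antennae and all 17 called in brain differed in the direction of their call on every slide where both arrays were measured. A gene whose groups lie apart must show this, and the calls come from the same arrays, so it adds nothing to them.

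**Figure D1:**
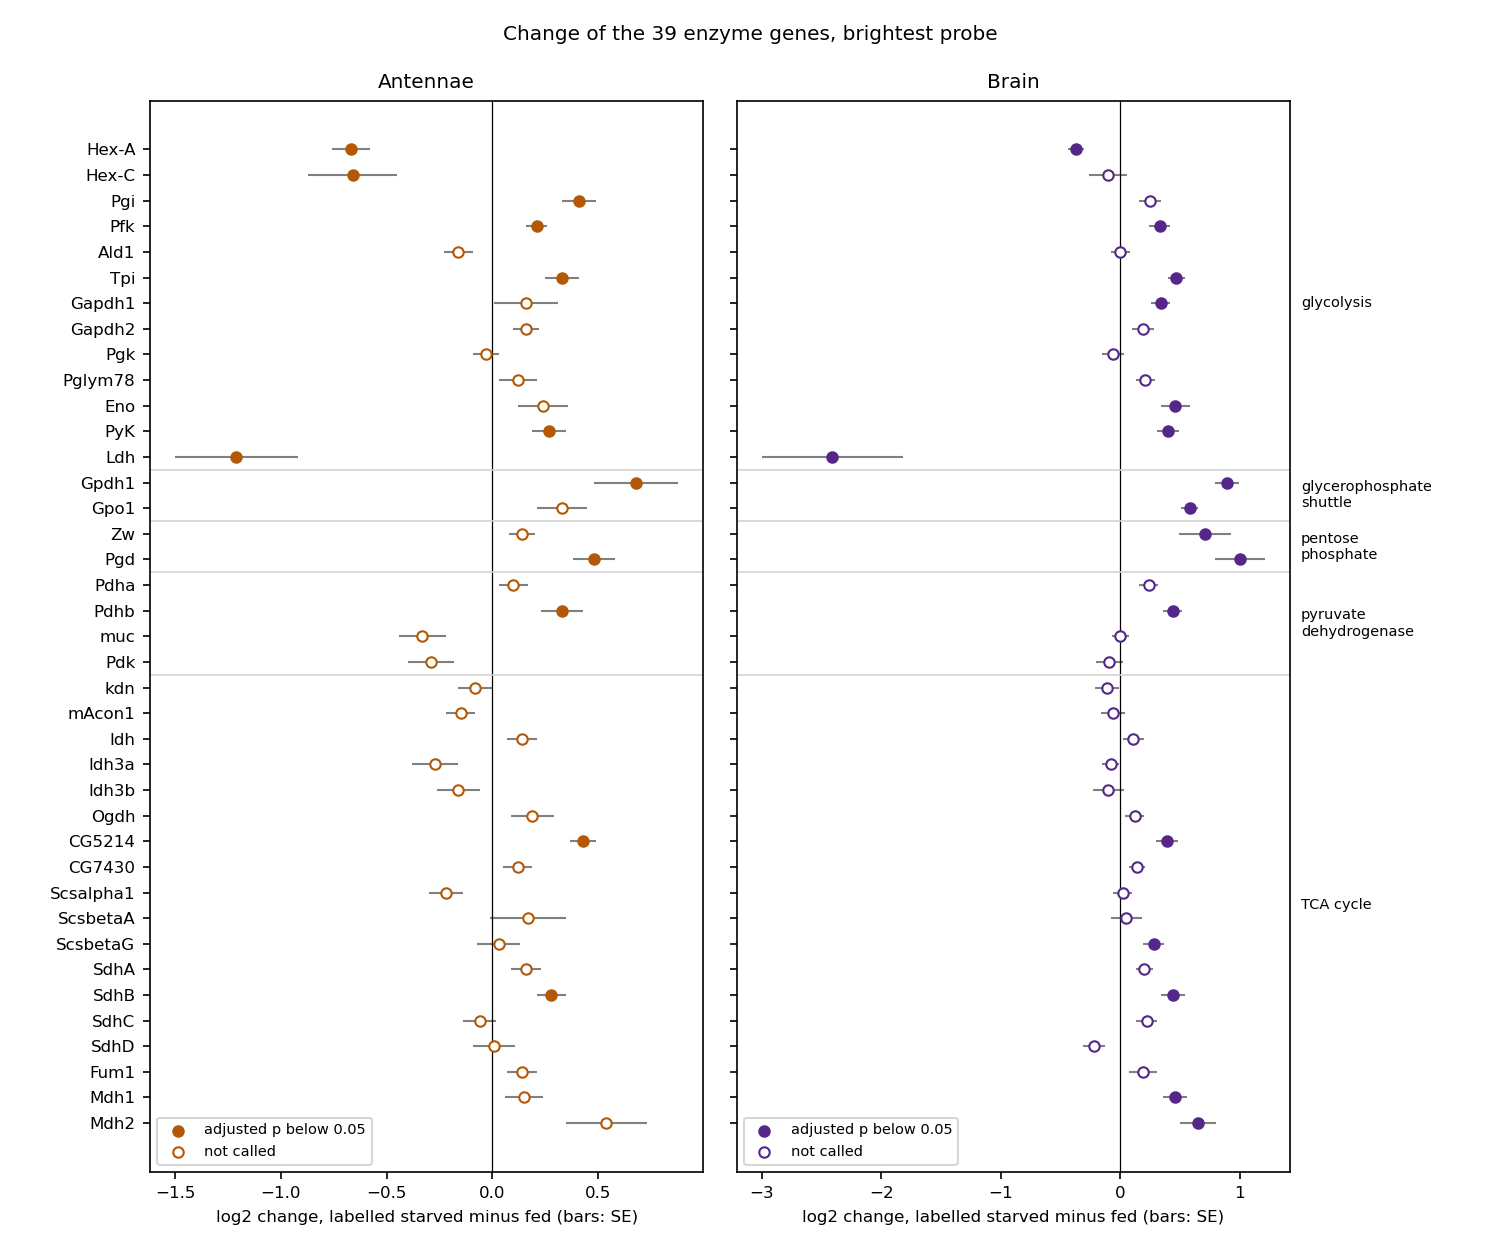
Log2 change, arrays labelled starved minus arrays labelled fed, of the brightest probe of each of the 39 genes in antennae (left) and brain (right), grouped by pathway, with SE as bars. Filled points have an adjusted p below 0.05; Ldh lies furthest to the left in both tissues, at −1.21 in antennae and −2.41 in brain, and the filled points to the right number 9 in antennae and 15 in brain.

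Most of the 39 genes were bright, and bright genes as a class did not behave as dim genes did. Of the 39 brightest probes, 37 had a mean level above the 75th percentile. Among all genes above that level, the antennal calls were 14.9% up and 9.81% down and the brain calls 17.9% up and 9.75% down, with median changes of 0.06 and 0.07. Among genes below it, the antennal calls were 8.78% up and 21.7% down and the brain calls 8.16% up and 27.1% down. Of 13 further enzyme probes below the 75th percentile, 1 was higher and 5 were lower in each tissue.

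**Figure D2:**
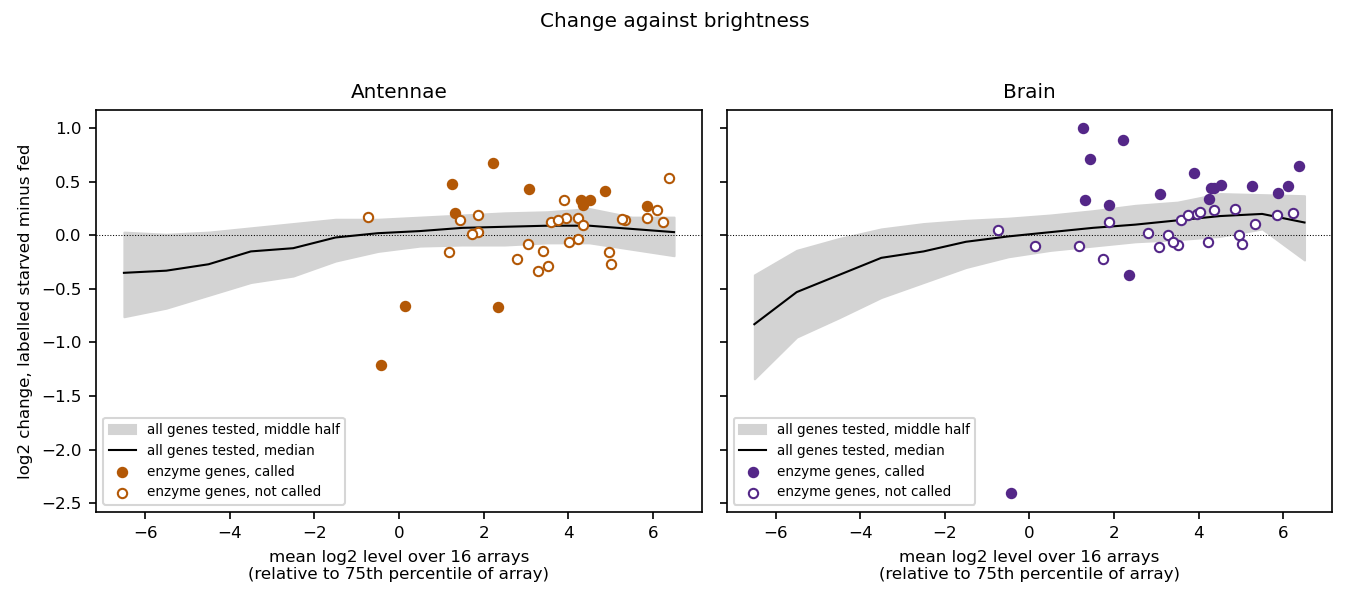
Log2 change, arrays labelled starved minus arrays labelled fed, against the mean log2 level over all 16 arrays, in antennae (left) and brain (right). The line and grey band give the median and the interquartile range of all genes tested in steps of 1 log2 unit, and the points are the 39 enzyme genes; the median of all genes climbs with brightness from −0.35 at the dim end to 0.09 at levels of 3 to 5 in antennae, and from −0.83 to 0.20 at levels of 5 to 6 in brain.

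The transcript of the enzyme at the entry of glycolysis was lower on the arrays labelled starved. Hex-A (CG3001) encodes a hexokinase, the enzyme that traps glucose as glucose 6-phosphate. In antennae its level was 2.45, 2.42, 2.48 and 2.35 on the arrays labelled starved, against 2.93, 3.08, 3.07 and 3.31 on those labelled fed. Its brain level was 1.81, 1.65, 1.79 and 1.79 labelled starved, against 2.20, 2.03, 2.17 and 2.11 labelled fed. Every array labelled starved lay below every array labelled fed in both tissues. The antennal change was −0.67 (SE 0.09, adjusted p = 0.00187), 1.59-fold lower. The brain change was −0.37 (SE 0.07, adjusted p = 0.00886), 1.29-fold lower. The second Hex-A probe fell as well, with changes of −0.88 and −0.63 (adjusted p = 0.0017 and 0.0098). The brain call was lost with arrays centred on the median, where the change was −0.16 (adjusted p = 0.351).

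Hex-C (CG8094) encodes another hexokinase. Antennal levels were −1.37, −1.08, −0.60 and −0.91 labelled starved, against −0.26, 0.07, −0.33 and −0.82 labelled fed. The groups overlapped, because the lowest array labelled fed lay below the highest labelled starved. The change was −0.66 (SE 0.21, adjusted p = 0.0488, exact permutation p = 0.0571), and the call was kept in 2 of 8 fits that left out 1 array and lost with the slide as a replicate block (adjusted p = 0.0808). In brain Hex-C was at 0.98, 0.75, 1.13 and 0.73 labelled starved and at 1.25, 1.11, 0.56 and 1.06 labelled fed, and was not called (change −0.10, SE 0.16).

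The other end of glycolysis held the largest change of all 39. Ldh (CG10160), called ImpL3 in the files, encodes lactate dehydrogenase, which turns pyruvate into lactate and restores NAD+. It stood in antennae at −1.01, −1.13, −0.87 and −0.54 labelled starved, against 0.45, −0.09, −0.25 and 1.16 labelled fed. Brain arrays gave −2.16, −0.93, −1.44 and −2.55 labelled starved, against 0.21, −0.60, 0.79 and 2.16 labelled fed. The groups did not overlap in either tissue, but the arrays labelled fed were spread widely, and replicate 4 was the highest of them in both. The antennal change was −1.21 (SE 0.29, adjusted p = 0.0179), 2.31-fold lower. The brain change was −2.41 (SE 0.59, adjusted p = 0.0173), 5.31-fold lower. Without that replicate 4 the changes were −0.93 (adjusted p = 0.0203) and −1.90 (adjusted p = 0.0175). The antennal call was lost in a fit over all 16 arrays (adjusted p = 0.0865) and with the methods' t-test (adjusted p = 0.052), and the brain call with the replicate block (adjusted p = 0.0575). Ldh has no second probe on the array.

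**Figure D3:**
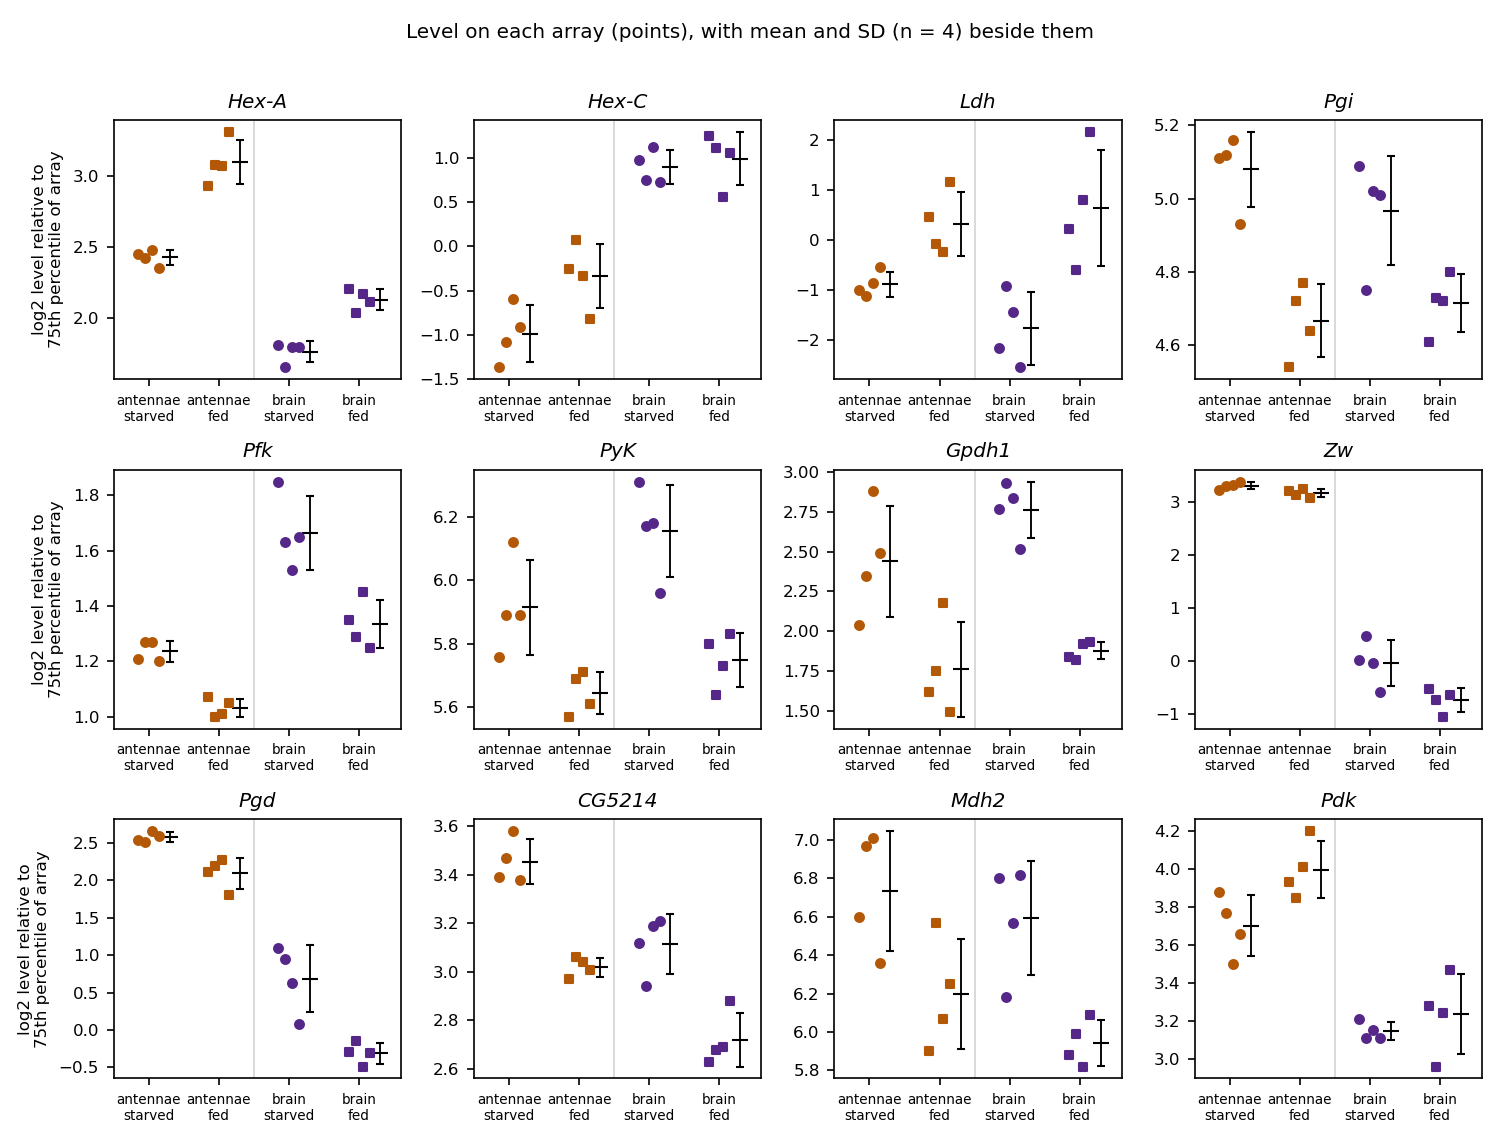
Log2 level relative to the 75th percentile of the array for 12 of the enzyme genes, with 1 point per array in antennae and brain, arrays labelled starved (circles) left of arrays labelled fed (squares), and the mean and SD (n = 4) beside them. Hex-A and Ldh sit lower on every array labelled starved than on any labelled fed in both tissues, and Zw and Pgd sit higher in antennae than in brain on every array.

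Between these ends, the genes of glycolysis that were called by their brightest probe were higher, while dimmer probes of Ald1 and Pglym78 were called lower. Pgi (CG8251) encodes glucose-6-phosphate isomerase, which reversibly turns glucose 6-phosphate into fructose 6-phosphate. Antennal levels were 5.11, 5.12, 5.16 and 4.93 labelled starved, against 4.54, 4.72, 4.77 and 4.64 labelled fed. The groups lay apart and the change was 0.41 (SE 0.08, adjusted p = 0.00756). In brain it was at 5.09, 4.75, 5.02 and 5.01 labelled starved and at 4.61, 4.73, 4.72 and 4.80 labelled fed, a change of 0.25 (SE 0.09, adjusted p = 0.0679) that was not called.

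Pfk (CG4001) encodes phosphofructokinase, the committed step. Its antennal level was 1.21, 1.27, 1.27 and 1.20 labelled starved, against 1.07, 1.0, 1.01 and 1.05 labelled fed. Its brain level was 1.85, 1.63, 1.53 and 1.65 labelled starved, against 1.35, 1.29, 1.45 and 1.25 labelled fed. Neither tissue showed overlap, though the changes were small, at 0.21 for antennae (SE 0.05, adjusted p = 0.0245) and 0.33 for brain (SE 0.09, adjusted p = 0.0255). The calls were kept in 4 and 5 of 8 fits that left out 1 array, and both were lost with the replicate block (adjusted p = 0.0603 and 0.0634). Its 2 dimmer probes gave changes from −0.01 to 0.04 that were not called.

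PyK (CG7070) encodes pyruvate kinase, which yields pyruvate. Antennal levels were 5.76, 5.89, 6.12 and 5.89 labelled starved, against 5.57, 5.69, 5.71 and 5.61 labelled fed. Brain levels were 6.31, 6.17, 6.18 and 5.96 labelled starved, against 5.80, 5.64, 5.73 and 5.83 labelled fed. The groups lay apart in both, with changes of 0.27 (SE 0.08, adjusted p = 0.0461) and 0.40 (SE 0.09, adjusted p = 0.0139). The antennal call was kept in 1 of 8 fits that left out 1 array, and a second probe changed by −0.08 and 0.06 (adjusted p = 0.539 and 0.669).

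Tpi (CG2171), the triosephosphate isomerase gene, was higher in both tissues, by 0.33 in antennae and 0.47 in brain (adjusted p = 0.0179 and 0.00351). A dimmer Tpi probe changed by 0.05 and 0.09 and was not called (adjusted p = 0.753 and 0.446). Gapdh1 (CG12055), a glyceraldehyde-3-phosphate dehydrogenase gene, was higher in brain by 0.34 (adjusted p = 0.0156), as was its second probe by 0.44. Eno (CG17654), the enolase gene, was higher in brain by 0.46 (SE 0.12, adjusted p = 0.0261), in a fit over 4 arrays labelled starved and 3 labelled fed, because its spot on replicate 3 labelled fed was marked as an outlier and left out. The Eno call was kept in 3 of 8 fits that left out 1 array, and a second Eno probe changed by 0.06 in brain (adjusted p = 0.524). Pglym78 (CG1721), another gene of glycolysis, was not called by its brightest probe (0.12 in antennae and 0.21 in brain). Its dimmest probe was called lower in antennae (−0.35, adjusted p = 0.0335) and not in brain (−0.14). The remaining probe changed by −0.33 and −0.29 and was not called (adjusted p = 0.053 and 0.118). Of the 13 glycolysis genes in all, the antennal calls were 4 up and 3 down (30.8% and 23.1%), where 11.1% and 17.2% of all genes were. The brain calls were 5 up and 2 down (38.5% and 15.4%), where 11.6% and 21.0% of all genes were.

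The aldolase gene Ald1 (CG6058) showed changes that depended on the probe, and it is described here after its values were seen. Aldolase splits fructose 1,6-bisphosphate into 2 trioses. The array has 3 probes for transcript CG6058-RB and 2 for CG6058-RE. The brighter RE probe in antennae was at −0.97, −1.07, −0.84 and −1.0 labelled starved, against 1.45, 1.38, 1.07 and 0.86 labelled fed. Brain arrays gave 1.20, 1.02, 1.16 and 0.30 labelled starved, against 2.43, 2.37, 2.03 and 2.34 labelled fed. The gap between the groups was over 1 log2 unit in antennae. Its antennal change was −2.16 (SE 0.13, adjusted p = 0.000204) and its brain change −1.37 (SE 0.20, adjusted p = 0.00277), and the call was kept in all 8 fits that left out 1 array in each tissue. The dimmer RE probe changed by −0.38 and −0.69 (adjusted p = 0.0139 and 0.0153). The brightest RB probe, which represents the gene in the counts, changed by −0.16 in antennae and −0.00 in brain and was not called in either. The other RB probes changed by −0.14 and −0.30 in antennae, of which the second was called (adjusted p = 0.0263), and by −0.05 and −0.12 in brain. Which exons each probe covers is not stated in the files.

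**Figure D4:**
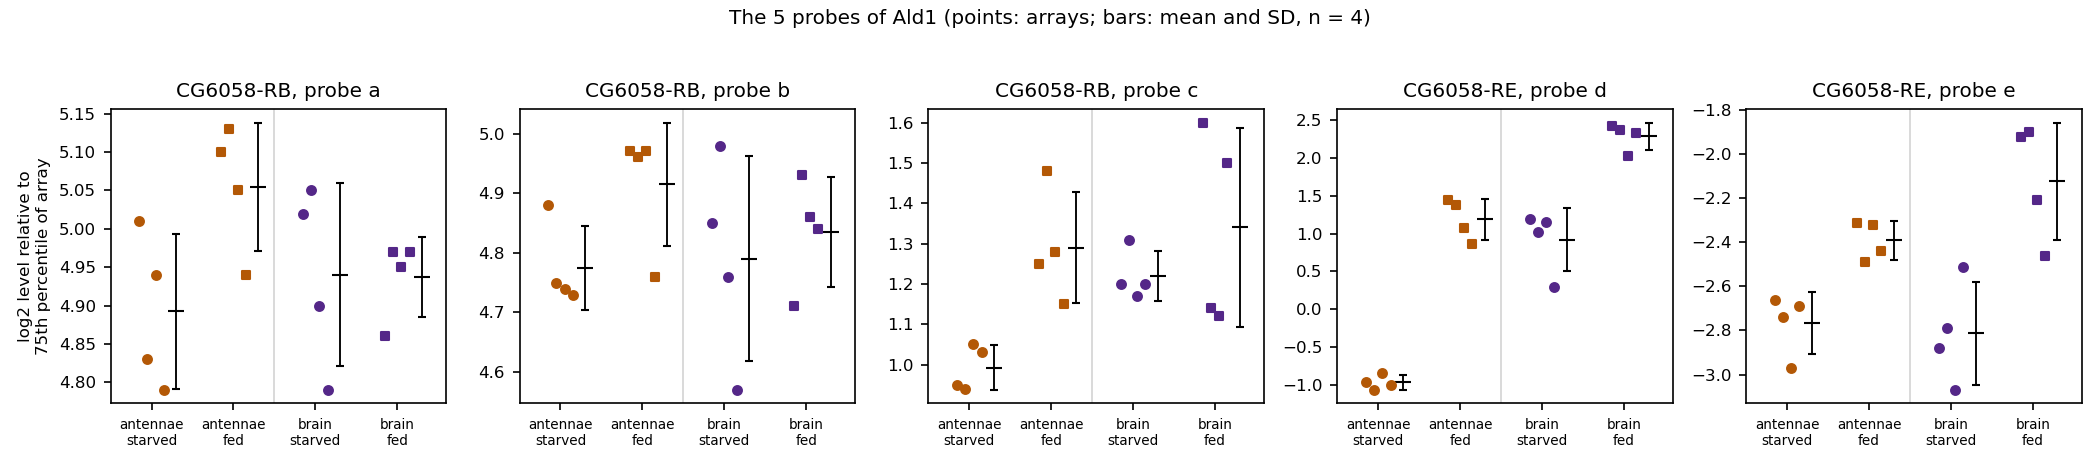
Log2 level relative to the 75th percentile of the array for the 5 probes of Ald1, 3 for transcript RB (a to c) and 2 for transcript RE (d and e), with 1 point per array, arrays labelled starved (circles) left of arrays labelled fed (squares), and the mean and SD (n = 4) beside them; each panel has its own vertical scale. Probe d lies between −1.07 and −0.84 on the antennal arrays labelled starved and between 0.86 and 1.45 on those labelled fed, whereas probe a differs by −0.16 on average.

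The glycerophosphate shuttle was higher in both of its genes in brain and in 1 of 2 in antennae. Gpdh1 (CG9042) encodes the cytosolic glycerol-3-phosphate dehydrogenase. Brain levels were 2.77, 2.93, 2.84 and 2.52 labelled starved, against 1.84, 1.82, 1.92 and 1.93 labelled fed. Antennal levels were 2.04, 2.35, 2.88 and 2.49 labelled starved, against 1.62, 1.75, 2.18 and 1.49 labelled fed. The brain groups lay apart and the antennal groups overlapped. The change reached 0.89 in brain (SE 0.10, adjusted p = 0.00109) and 0.68 in antennae (SE 0.20, adjusted p = 0.0347). Its 3 other probes were called higher in 2 cases in brain, at 0.38 and 0.56, and in none in antennae, where the antennal call of the brightest probe was kept in 2 of 8 fits that left out 1 array. Gpo1 (CG8256), the mitochondrial partner, was higher in brain by 0.58 (SE 0.07, adjusted p = 0.00116) and not called in antennae (0.33, adjusted p = 0.0736).

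The 2 dehydrogenases of the oxidative pentose phosphate pathway, the enzymes that make NADPH, were both higher in brain, and Pgd had the largest rise of the 39 there. Pgd (CG3724) encodes 6-phosphogluconate dehydrogenase. On the brain arrays it stood at 1.09, 0.95, 0.63 and 0.08 labelled starved, against −0.30, −0.15, −0.49 and −0.31 labelled fed. On the antennal arrays it stood at 2.54, 2.51, 2.66 and 2.60 labelled starved, against 2.12, 2.19, 2.27 and 1.80 labelled fed. The groups lay apart in both tissues, with a change of 1.0 in brain (SE 0.21, adjusted p = 0.00981) and of 0.48 in antennae (SE 0.10, adjusted p = 0.0115). Both calls were kept in all 8 fits that left out 1 array, but the antennal call was lost in a fit over all 16 arrays (adjusted p = 0.0515).

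Zw (CG12529) encodes glucose-6-phosphate dehydrogenase, the first step of the pathway. In brain its level was 0.03, 0.48, −0.04 and −0.58 labelled starved, against −0.52, −0.74, −1.05 and −0.64 labelled fed. The lowest array labelled starved, replicate 4, lay within the range of those labelled fed. The change was 0.71 (SE 0.22, adjusted p = 0.0387, exact permutation p = 0.0571), and the call was kept in 1 of 8 fits, the one without that array (0.89, adjusted p = 0.0119), and lost with the replicate block (adjusted p = 0.0623). Its second probe changed by 0.70 (adjusted p = 0.0628). In antennae Zw was at 3.23, 3.29, 3.31 and 3.38 labelled starved and at 3.21, 3.13, 3.24 and 3.08 labelled fed, a change of 0.14 (SE 0.06, adjusted p = 0.134). The brain array labelled starved with the lowest Zw and Pgd, replicate 4, also had the lowest fat body and glial sums of its group, 97.8 and 46.1. The part of fat body or glial RNA in these changes was not tested.

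At the gate to the mitochondrion, 1 of 4 genes was called in each tissue. Pdhb (CG11876), the E1 beta subunit of pyruvate dehydrogenase, was higher by 0.33 in antennae (adjusted p = 0.0431) and 0.44 in brain (adjusted p = 0.00654). The antennal call was kept in 2 of 8 fits that left out 1 array and in 6 of 12 other settings. Neither of its 2 other probes was called in either tissue, with changes from −0.05 to 0.06. Pdk (CG8808) encodes the kinase that switches pyruvate dehydrogenase off. Antennal levels were 3.88, 3.77, 3.50 and 3.66 labelled starved and 3.93, 3.85, 4.01 and 4.20 labelled fed, with 1 array overlapping (change −0.29, SE 0.11, adjusted p = 0.0672). Brain levels were 3.21, 3.11, 3.15 and 3.11 labelled starved and 3.28, 2.96, 3.24 and 3.47 labelled fed (change −0.09, SE 0.11, adjusted p = 0.539). A dimmer Pdk probe was called lower in both tissues, by −0.87 and −0.65 (adjusted p = 0.00393 and 0.00476).

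In the TCA cycle list, 2 of 18 genes were higher in antennae, 5 were higher in brain and none was lower by its brightest probe in the main limma fits. The shares higher were 11.1% and 27.8%, beside 11.1% and 11.6% of all genes. The 18 include the cytosolic malate dehydrogenase Mdh1 and the NADP+-dependent Idh, enzymes that lie beside the cycle itself. At an unadjusted p below 0.05, 5 of the 18 changed in antennae and 8 in brain, in either direction, where 42.3% and 44.6% of all genes did, so the numbers were not above the background. Of 13 other tested probes of these genes, the antennal calls were 4 up and 2 down, and the brain calls 3 up and 2 down. Of all probes tested, 10.3% were up and 19.2% down in antennae, and 11% and 22% in brain. The 2 that were down were the same in both tissues. The second probe of Ogdh (CG11661), which encodes the E1 subunit of 2-oxoglutarate dehydrogenase, changed by −0.57 in each (adjusted p = 0.00463 and 0.0157). That of mAcon1 (CG9244), an aconitase gene, changed by −0.45 and −0.62 (adjusted p = 0.0485 and 0.0254). The brightest probes of these genes were not called. kdn (CG3861) encodes citrate synthase, which admits acetyl-CoA to the cycle. Its antennal level was 3.42, 3.24, 3.49 and 3.58 labelled starved and 3.51, 3.46, 3.50 and 3.58 labelled fed. Its brain level was 2.58, 2.83, 2.53 and 2.44 labelled starved and 2.74, 2.59, 2.81 and 2.67 labelled fed. The groups overlapped, and the changes of −0.08 and −0.11 (SE 0.08 and 0.10) were not called.

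CG5214 encodes the E2 subunit of the 2-oxoglutarate dehydrogenase complex. In antennae its level was 3.39, 3.47, 3.58 and 3.38 labelled starved, against 2.97, 3.06, 3.04 and 3.01 labelled fed. Brain arrays gave 3.12, 2.94, 3.19 and 3.21 labelled starved, against 2.63, 2.68, 2.69 and 2.88 labelled fed. The groups lay apart in both tissues, with changes of 0.43 (SE 0.06, adjusted p = 0.00322) and 0.39 (SE 0.09, adjusted p = 0.0144). All 3 of its probes were higher in antennae, the others by 0.39 and 0.29, and 2 of 3 in brain.

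Mdh2 (CG7998) encodes the mitochondrial malate dehydrogenase, which closes the cycle. In brain its level was 6.80, 6.18, 6.57 and 6.82 labelled starved, against 5.88, 5.99, 5.82 and 6.09 labelled fed. These groups lay apart and the change was 0.65 (SE 0.15, adjusted p = 0.0141). In antennae it was at 6.60, 6.97, 7.01 and 6.36 labelled starved and at 5.90, 6.57, 6.07 and 6.25 labelled fed, a change of 0.54 (SE 0.19, adjusted p = 0.0586). SdhB (CG3283), the iron-sulfur subunit of succinate dehydrogenase, was higher in both tissues, by 0.28 and 0.44 (adjusted p = 0.0222 and 0.0124), and its antennal call was kept in 4 of 8 fits that left out 1 array. Mdh1 (CG5362), the cytosolic malate dehydrogenase gene, was higher in brain by 0.46 (adjusted p = 0.0109). ScsbetaG (CG10622), a beta subunit of succinyl-CoA synthetase, was higher in brain by 0.28 (adjusted p = 0.049), a call kept in 1 of 8 fits that left out 1 array and lost with the replicate block (adjusted p = 0.0907). Idh (CG7176), the NADP+-dependent isocitrate dehydrogenase gene, was not called by its brightest probe (0.14 and 0.11), but its second probe was higher by 0.58 in antennae and 0.68 in brain (adjusted p = 0.0197 and 0.00792).

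Other probes of a called gene often did not share its call. Of the 12 genes called in antennae, 8 had another tested probe, and in 2 of these, Hex-A and CG5214, another probe was called the same way. Of the 17 called in brain, 12 had another tested probe, and in 4, Hex-A, Gapdh1, Gpdh1 and CG5214, another was called the same way. No other probe of a called gene was called the opposite way in either tissue. The antennal calls of Pgi, Pgd, Hex-C and Ldh rest on 1 tested probe each, as do the brain calls of Pgd, Ldh, ScsbetaG, Mdh1 and Mdh2.

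The difference between antennae and brain in the change with the label was tested as an interaction. None of the 39 genes was called by limma, where 3.22% of all genes were, and none by the methods' t-test. At an unadjusted p below 0.05, 6 of the 39 differed in each of these tests, near the 16.8% of all genes that did in limma. The change in antennae minus that in brain was −0.57 for Zw (SE 0.24, adjusted p = 0.247), −0.51 for Pgd (SE 0.25, adjusted p = 0.323), −0.30 for Hex-A (SE 0.11, adjusted p = 0.175) and 1.20 for Ldh (SE 0.71, adjusted p = 0.432). These errors leave room for sizeable differences. Without replicate 4 of the brain arrays labelled starved, Zw and Pgd were called, at −0.75 (adjusted p = 0.034) and −0.72 (adjusted p = 0.0352).

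More of the genes were called between the tissues than between the labels, as was so for all genes tested. In fed antennae 23 of the 39 genes were higher than in fed brain and 2 were lower, where 33.3% of all genes were higher and 41.4% lower. With quantile scaling these counts were 11 and 9, and with cyclic loess 17 and 6. All 4 pyruvate dehydrogenase genes and 13 of 18 TCA cycle genes (72.2%) were higher in antennae, against 3 of 13 glycolysis genes, of which 2 were lower. Of 25 oxidative phosphorylation genes, a neighbouring list, 18 (72%) were higher and 1 was lower, with a median difference of 0.41. Among all genes with a mean level above the 75th percentile, 38.2% were higher and 35.4% lower. The median difference was 0.38 for the TCA cycle genes and 0.01 for the glycolysis genes, beside −0.12 for all genes. With quantile scaling these were 0.12, −0.32 and −0.08, and the median of all 39 was −0.04 in place of 0.27. The marker sums of other cells differed between the tissues too. That of the muscle genes was 54.3 to 84.2 in fed antennae and 17.3 to 26.0 in fed brain. That of the photoreceptor genes was 154 to 216 and 258 to 348, that of the fat body genes 10.9 to 25.6 and 29.6 to 52.4. The glial sum was 24.3 to 28.1 and 39.3 to 48.3, and the gut sums overlapped, at 0.796 to 120 and 13.6 to 157. The part of these cells in the differences was not tested.

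Zw and Pgd had the largest differences of the 39. Zw was at 3.21, 3.13, 3.24 and 3.08 in fed antennae, against −0.52, −0.74, −1.05 and −0.64 in fed brain, a difference of 3.90 (SE 0.12, adjusted p = 2.47e-08), or 15-fold. Its second probe differed by 3.83. Pgd differed by 2.41 (SE 0.12, adjusted p = 4.02e-07), or 5.30-fold. All 4 arrays of fed antennae lay above all 4 of fed brain for both. The 5 further pentose phosphate genes of the listed neighbours were all higher in fed antennae: Rpe, ribulose-phosphate epimerase, by 2.39, Pgls, the lactonase between Zw and Pgd, by 1.30, Taldo, transaldolase, by 1.14, CG8036, a transketolase gene, by 0.81 and Rpi, ribose-5-phosphate isomerase, by 0.47 (the highest adjusted p was 0.000661). Of the 2 listed malic enzyme genes, Men was higher by 1.10 and Men-b lower, at −0.54 (adjusted p = 1.25e-05 and 0.000442).

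Other members were higher in fed antennae by less. ScsbetaG differed by 1.54 (SE 0.12) and Idh, the NADP+-dependent enzyme, by 1.43 (SE 0.08, adjusted p = 5.2e-07) with a second probe at 1.37. SdhD (CG10219), a membrane anchor of succinate dehydrogenase, differed by 1.20 (SE 0.09), Hex-A by 0.97 (SE 0.09), Ogdh by 0.90 (SE 0.09), kdn by 0.81 (SE 0.07), SdhB by 0.79 (SE 0.08) and Pdk by 0.76 (SE 0.13). The 2 genes lower in antennae were Hex-C, by −1.33 (SE 0.21, adjusted p = 0.000519), and Pfk, by −0.30 (SE 0.07, adjusted p = 0.00431). The 2 hexokinase genes thus differed in opposite directions. Ldh, with its wide spread among arrays labelled fed, gave −0.32 (SE 0.57, adjusted p = 0.627). Of the 25 called genes, 17 had another tested probe, and in 15 of these another was called the same way. The second probe of mAcon1 was called the opposite way, at −0.44 beside 0.42 for the brightest.

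**Figure D5:**
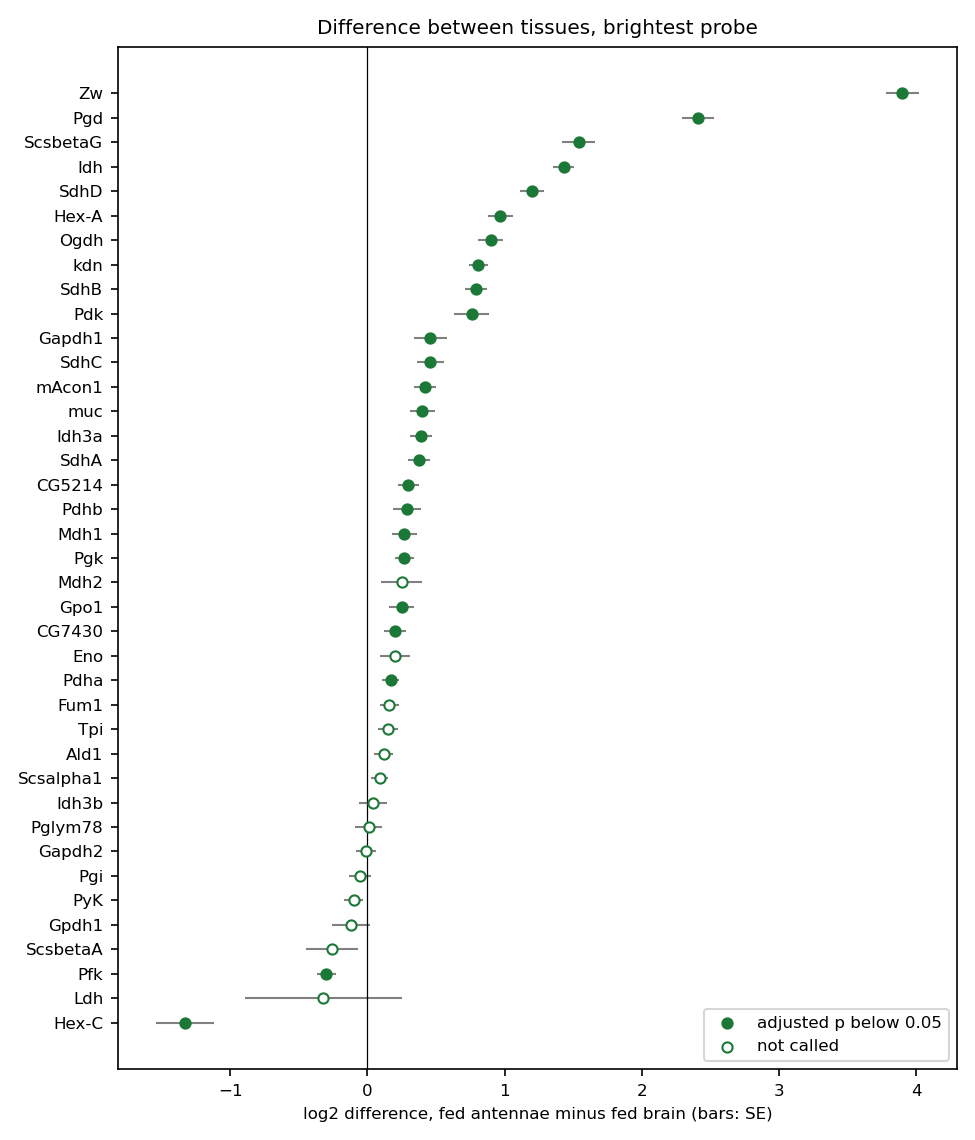
Log2 difference of the brightest probe, fed antennae minus fed brain, for each of the 39 genes in order of the difference, with SE as bars and filled points for an adjusted p below 0.05. Zw (3.90) and Pgd (2.41) stand to the right of the others, and Hex-C (−1.33) stands alone on the left.

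Genes around these pathways were counted whole, list by list. Of 43 listed paralogues and further steps, 19 were bright enough to test in antennae and 21 in brain. The antennal calls were 5 up and 2 down (26.3% and 10.5%), where 11.1% and 17.2% of all genes were. The brain calls were 2 up and 4 down (9.52% and 19%), near the 11.6% and 21.0% of all genes. CG8036 was higher by 0.53 in antennae and by 0.67 in brain, the largest called rise there (adjusted p = 0.00965 and 0.00954). The largest falls were CG9961, a phosphoglycerate kinase paralogue, in antennae (−0.51, adjusted p = 0.00318) and CG9396, a mitochondrial pyruvate carrier paralogue, in brain (−0.84, adjusted p = 0.0143).

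Gpo2, a paralogue of Gpo1, is dim. In antennae it was at −4.85, −4.81, −5.05 and −4.92 labelled starved, against −5.65, −5.84, −5.37 and −5.80 labelled fed. The antennal change was 0.75 (SE 0.11, adjusted p = 0.00326), and 0.31 with normexp background correction (adjusted p = 0.0791). In brain it was well above background on 1 of 4 arrays labelled starved and on all 4 labelled fed, so its level in the first of these groups is not measured and no size of a brain change is given. The brain call was kept in 4 of 8 fits that left out 1 array and in 4 of 11 other settings.

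Of 25 genes of oxidative phosphorylation, which receives the electrons of the TCA cycle, the antennal calls were 1 up and 1 down (4% each). Of all genes, 11.1% were called up there and 17.2% down. The brain calls were 10 up and none down, where 11.6% of all genes and 17.9% of the bright genes were called up. In brain 14 of the 25 had an unadjusted p below 0.05, in either direction, where 44.6% of all genes did, and their median change was 0.22. The largest rise in brain was Cyt-c-p, cytochrome c, at 0.71 (adjusted p = 0.00645), and in antennae ATPsynD, an ATP synthase subunit, at 0.50 (adjusted p = 0.0282). The one lower in antennae was blw, the ATP synthase alpha subunit, at −0.26 (adjusted p = 0.0398). Of 9 genes of gluconeogenesis, trehalose and glycogen, the antennal calls were none up and 3 down, the same number as had an unadjusted p below 0.05, and the brain calls 2 up and 3 down. The shares were 33.3% down in antennae, and 22.2% up and 33.3% down in brain, beside 17.2%, 11.6% and 21.0% of all genes. Pepck1 was the largest fall in both tissues, and AGBE, the glycogen branching enzyme gene, was the largest rise in brain, at 0.68 (adjusted p = 0.0052).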

How the data were processed

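The authors deposited the Feature Extraction 9.1 output of 16 one-colour arrays, in which the intensity of each spot was background subtracted and not scaled between arrays. The log2 table that the authors also deposited differs from these intensities on a log2 scale by 1 constant per array, and served as an alternative. The paper's methods scale to the 75th percentile, as done here: control spots (1417 of 45020) and outlier spots were left out, log2 intensities were set against the 75th percentile of 43603 spots of the array, and spots of a probe were averaged. That percentile ran from 614 to 1030, and 65.4% to 73.6% of spots were well above background. A probe entered a test if 1 group or more had it well above background on each of its 4 arrays (20587 probes in antennae, 21838 in brain, 22624 between fed tissues, 22784 for the interaction).

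Groups were compared with limma 3.58.1 in R 4.3.3 (lmFit, eBayes, two-sided, Benjamini-Hochberg at 0.05 over all probes tested), and single values by exact two-sided permutation over arrays, where 0.0286 is the smallest p that 4 against 4 can give. The tool was tested on simulated data. The interaction used 1 fit over 16 arrays. A gene is represented by its brightest probe over all arrays. Per-array values are given for the 4 largest called rises and falls in each tissue and for Hex-A, Pfk, PyK, Ldh, Pdk, Zw and kdn; other genes are given by their changes, the listed neighbours by counts and by the largest called rise and fall. The further pentose phosphate and malic enzyme genes, CG8036 in antennae, Gpo2, AstA and CCHa1 were named after their values were seen. So were Ald1, Pglym78 and the second and further probes. The members and lists were chosen with earlier results of these data known. One gene was dropped from the list of further steps because it encodes a lipid kinase. Probes were named with RefSeq's gene table for Release 6, which gave a gene to 20675 of 32162 probes, and no coordinates or sequences are given. The alternatives are those in the closing section, of which cyclic loess was chosen after the data were seen. Tables and figures used Python 3.11.15 with pandas 2.3.3 and matplotlib 3.10.9.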

Additional observations from a re-analysis of the deposited data

Results flagged for a closer look

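Among 155 sets of 4 arrays (1 gene in 1 group), 9 (5.81%) held an array far from its 3 neighbours, by a gap that takes more of the whole range than Dixon's critical value for 4 samples, and chance gives about 1 in 20. The share of the range was 0.861 for Hex-A in brain labelled starved (replicate 2 low), 0.904 for Tpi in brain labelled starved (replicate 2 low) and 0.866 for Tpi in brain labelled fed (replicate 4 high). It was 0.867 for Pglym78 in antennae labelled fed (replicate 1 low), 0.892 for Gpo1 in antennae labelled starved (replicate 3 high) and 0.897 for Ogdh in antennae labelled starved (replicate 2 low). It was 0.903 for Idh in brain labelled starved (replicate 3 high), 0.885 for Idh in brain labelled fed (replicate 2 low) and 0.983 for SdhB in antennae labelled fed (replicate 2 high). The gaps were between 0.09 and 0.41 on the log2 scale.

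The change with the label differed between the tissues, by the interaction test, for 2 genes named in the text that are not among the 39 enzymes. AstA differed by −1.91 (antennae minus brain, adjusted p = 0.0117), and its antennal fall came with those of Pdf and Dh44. Gpo2 gave 1.54 (adjusted p = 0.0105), but its probe was well above background on only 1 of the 4 brain arrays labelled starved, and with normexp background correction the difference was 0.50 (adjusted p = 0.0535).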

How the results depend on the processing

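Precision is limited by having 4 arrays in a group, and dim probes could not be tested. Centring on the median moved the median change of all genes to 0.19 in antennae and 0.14 in brain, and turned all calls in antennae from 1654 higher and 2571 lower to 5268 and 1207, and in brain from 1838 and 3321 to 2562 and 1828. With quantile scaling the antennal calls were 2467 up and 1398 down and the brain calls 2095 and 1966. The cause was not tested. Of the 39 enzymes, 22 were higher in antennae with median centring and 5 with no filter on dim probes, against 9. The number lower in antennae, 3 above, was 5 in 1 fit over all 16 arrays, 6 with cyclic loess, the mean over probes or quantile scaling, and 1 with the methods' t-test, which gave 21 at an unadjusted p below 0.05 and 7 higher after adjustment. The number lower in brain, 2 above, was 1 with median centring or the replicate block and 4 with the mean over probes. Between fed tissues, 11 were higher with quantile scaling, against 23, and the 2 lower became 1 with median centring, 6 with cyclic loess and 9 with quantile scaling.

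Leaving out 1 array gave 4 to 9 higher and 2 to 6 lower in antennae, 11 to 15 higher and 2 to 2 lower in brain, 18 to 23 higher and 2 to 3 lower between tissues, and 0 to 2 for the interaction. In antennae the number higher was 4 without replicate 2 or without replicate 3 labelled starved, the second of which gave 6 lower, and 5 without replicate 3 or without replicate 4 labelled fed. The 2 of the interaction appeared without replicate 4 of brain labelled starved.

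Arrays with the same replicate number shared a slide. Antennae and brains with the same label may come from the same flies, but nothing states which extracts belong together. The deviations of same-numbered arrays had correlations from −0.15 to 0.28. With the slide as a replicate block, 8 were higher and 2 lower in antennae, 12 higher and 1 lower in brain, and 0 were called in the interaction. Changes that turned sign were small: kdn in antennae became 0.13, and Hex-C, Pdk and kdn in brain 0.11, 0.11 and 0.10, with median centring. Idh in brain became −0.02 with cyclic loess and −0.07 with quantile scaling, and Ldh between fed tissues ran from −0.73 without replicate 2 of brain labelled fed to 0.19 without replicate 4.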
